A study of Mus musculus with 15 samples.

Results

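The genes described here are 36 markers of endothelial cells, the cells that line blood vessels, read in RNA from nuclei of mouse ventricular muscle. They were chosen by symbol from the smaller deposited count table, whose genes average 10 counts or more, and all 36 of the 36 names were among its 16610 genes. The 15 libraries were made from total RNA of nuclei sorted for Pcm1, a protein of centriolar satellites that is used to pick out cardiomyocyte nuclei, after removal of ribosomal RNA. The series asks how the progesterone receptor, encoded by Pgr, acts on the maturing heart in each sex. By their labels, 4 female and 4 male libraries had the genotype Pgr_KO (below, knockout label), and 3 female and 4 male libraries had Pgr_WT (wild-type label). All libraries shared the sort, the tissue and the library kit, and no label names a treatment. The tissue label opens with a range of numbers that has no unit. The age, the strain background and the kind of Pgr deletion are not given in the sources used here, nor whether a library is 1 animal or a pool. The labels do not tie replicates to separate animals, so the p-values below measure only the spread between these samples, which may be technical.

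An endothelial cell is held to its neighbours by junction proteins such as VE-cadherin, and it senses its surroundings through receptors for vascular endothelial growth factor (VEGF), for angiopoietins and for the TGF-beta family. The identity of these cells depends on transcription factors of the ETS family, which bind a GGAA core, and of the SoxF family, while Notch signalling helps to set apart arteries and sprouting tips. In the heart, capillaries run close to every muscle cell and pass on fatty acids, for which they carry dedicated surface and carrier proteins. A sort for cardiomyocyte nuclei is meant to leave the endothelial nuclei behind. In bulk samples such as these, fewer cells of a type and less RNA per cell cannot be told apart.

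The libraries held 24.4 to 139.4 M counts, and levels are given as CPM, counts in each M of counts, on library sizes scaled by TMM, a trimmed mean of log ratios. A floor of 3 counts equals 0.0219 to 0.117 CPM, for counting error only. Pgr reads ran against the genotype labels: the 8 libraries labelled knockout had 6.10 to 12.5 CPM of Pgr and the 7 labelled wild type had 0 to 0.267 CPM, so every direction below is that of a label. The defining markers of the sorted cells were abundant, with a sum of 48695 to 80218 CPM over 12 cardiomyocyte genes. The 36 endothelial genes together held 0.00574% to 0.167% of the counts of a library. In 3 libraries there were reads of the other sex: the knockout-label female replicate 2 and the wild-type-label female replicate 2 had Y-linked genes at 2.41% to 3.56% of the male mean, and the wild-type-label male replicate 2 had Xist at 3.72% of the female mean.

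The sequences just upstream of 5 of the endothelial genes are shown first. Whether they have a part in the levels described below was not tested. RefSeq promoters of GRCm38.p6 matched 18 of the 36 genes. Each sequence is the 250 bases before the RefSeq start site, 5′ to 3′ on the strand of the gene, and capitals mark GGAA, the core bound by ETS factors, or TTCC, the same core on the other strand. Flt1 encodes a VEGF receptor, Emcn and Eng had 2 of the 3 largest differences between libraries, and Robo4 and Clec14a had 2 of the 3 smallest.
Flt1 (chr5:147726012-147726261, minus strand): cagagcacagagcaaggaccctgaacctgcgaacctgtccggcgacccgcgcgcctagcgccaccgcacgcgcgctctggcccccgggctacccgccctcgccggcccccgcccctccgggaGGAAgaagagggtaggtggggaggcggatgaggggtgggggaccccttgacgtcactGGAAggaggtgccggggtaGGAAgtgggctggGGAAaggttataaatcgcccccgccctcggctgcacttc
Emcn (chr3:137340828-137341077, plus strand): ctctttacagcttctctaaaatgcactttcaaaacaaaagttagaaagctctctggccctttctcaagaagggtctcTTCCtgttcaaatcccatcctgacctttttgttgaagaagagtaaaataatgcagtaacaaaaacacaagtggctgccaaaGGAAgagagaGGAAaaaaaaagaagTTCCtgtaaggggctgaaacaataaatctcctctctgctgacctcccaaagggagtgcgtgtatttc
Eng (chr2:32646345-32646594, plus strand): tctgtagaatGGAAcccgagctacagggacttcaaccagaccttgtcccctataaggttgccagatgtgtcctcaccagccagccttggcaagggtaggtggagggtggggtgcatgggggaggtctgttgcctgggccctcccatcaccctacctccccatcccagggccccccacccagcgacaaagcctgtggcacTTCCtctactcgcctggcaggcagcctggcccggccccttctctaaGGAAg
Robo4 (chr9:37401722-37401971, plus strand): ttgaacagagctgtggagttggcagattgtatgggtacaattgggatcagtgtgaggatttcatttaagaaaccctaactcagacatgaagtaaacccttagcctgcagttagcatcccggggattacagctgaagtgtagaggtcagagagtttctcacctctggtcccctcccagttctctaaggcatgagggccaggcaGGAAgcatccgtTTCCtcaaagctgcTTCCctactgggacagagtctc
Clec14a (chr12:58269259-58269508, minus strand): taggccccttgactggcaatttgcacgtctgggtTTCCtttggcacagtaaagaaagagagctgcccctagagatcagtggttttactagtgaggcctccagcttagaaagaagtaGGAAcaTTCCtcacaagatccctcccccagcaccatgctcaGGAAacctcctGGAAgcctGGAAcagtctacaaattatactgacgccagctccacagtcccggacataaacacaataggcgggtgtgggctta
The core occurred 4 times before Flt1 and Emcn, 3 times before Eng and Robo4, and 6 times before Clec14a. Over the 18 matched genes, searched on both strands, GGAA was present in 16 (88.9%), against 93.4% of 20595 mouse promoters of the same length. The longer form AGGAAG, which contains GGAA, was present in 11 of 18 (61.1%), against 29.0% of all promoters, and CACCC, the letters read by Krüppel-like factors, in 14 (77.8% against 52.6%). AACAAT, a core of Sox factors, was present in 2 (11.1% against 9.02%), and AGATAA, a core of GATA factors, in 0 (0% against 9.42%). Such matches describe letters and not occupied sites. For each of the 18 genes the start site nearest its deposited 5′ end was used, whereas all promoters were counted at the first listed site of each symbol. The percentages thus come from sets that were not chosen alike. The site used lay 12841 bases from the deposited end for Notch1, 3024 for Cyyr1 and 1069 for Egfl7.

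Pecam1 divided the libraries into a set with much and a set with little endothelial RNA, and each of the 4 label groups held both. Pecam1 (chr11:106654217-106750628, minus strand) encodes CD31, an adhesion protein at endothelial junctions. Its level was at or above 20 CPM in 6 libraries, here called high-Pecam1: knockout-label female replicates 1 and 2, knockout-label male replicates 1 and 2, wild-type-label female replicate 1 and wild-type-label male replicate 1. The 9 low-Pecam1 libraries were knockout-label female 3 and 4, knockout-label male 3 and 4, wild-type-label female 2 and 3, and wild-type-label male 2, 3 and 4. Lists of 6 and of 9 values below keep these orders. The level went with the replicate number: replicate 1 was high in all 4 groups, replicates 3 and 4 were low in every group that holds them, and replicate 2 was high with the knockout label and low with the wild-type label. The labels do not say what a replicate number stands for. Pecam1 stood at 37.0, 79.5, 46.6, 43.4, 43.7 and 47.6 CPM in the high-Pecam1 libraries and 3.00, 4.17, 4.03, 4.13, 4.96, 6.82, 8.06, 2.62 and 4.09 CPM in the low-Pecam1 libraries. The lowest value inside the threshold was 37.0 CPM and the highest outside it was 8.06 CPM, with no library between them.

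The sum of all 36 genes followed the same division. It was 798, 1511, 867, 898, 934 and 991 CPM in the high-Pecam1 libraries and 67.5, 91.8, 94.3, 107, 116, 169.8, 208, 66.6 and 108 CPM in the low-Pecam1 libraries. The knockout-label female replicate 2 was highest and the wild-type-label male replicate 3 lowest, and the sets did not overlap. The medians of 916 and 107 CPM differed 8.60-fold, and the lowest high-Pecam1 library was 3.83-fold above the highest low-Pecam1 library. In each of the 36 genes, every high-Pecam1 library lay above every low-Pecam1 library. Among all 17455 tested genes, 13.6% showed such a gap, and since Pecam1 made the division, the differences are given as a description with no test.

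**Figure D1:**
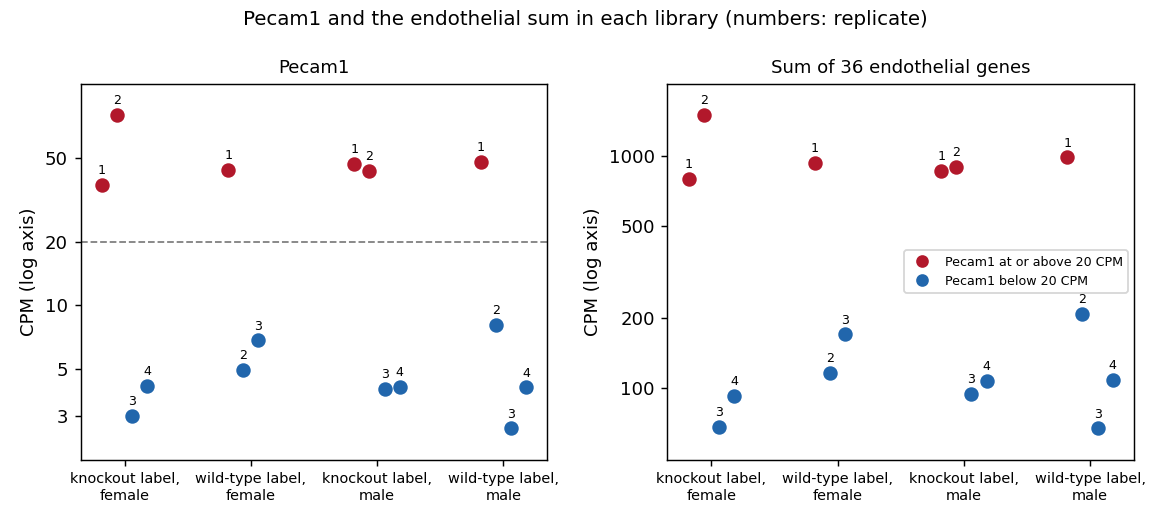
Pecam1 (left) and the sum of the 36 endothelial genes (right) in each of the 15 libraries, in CPM on log axes, by label group. Numbers beside the points are replicates, red points are libraries at or above 20 CPM of Pecam1 (dashed line) and blue points are below it. Each label group holds libraries of both kinds, and the sums lie between 798 and 1511 CPM in red and between 66.6 and 208 CPM in blue.

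The ratio of the high-Pecam1 to the low-Pecam1 median had a median of 8.42 over the 36 genes, with quartiles of 7.23 and 9.91, against 0.995 over all tested genes. It reached at least 4 in 36 of 36 genes and in 10.1% of the tested genes. It was largest for Vwf (19.2), Emcn (12.7) and Eng (12.6) and smallest for Ets1 (4.68), Robo4 (5.10) and Clec14a (5.99). The plot of genes by library shows how evenly they moved.

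**Figure D2:**
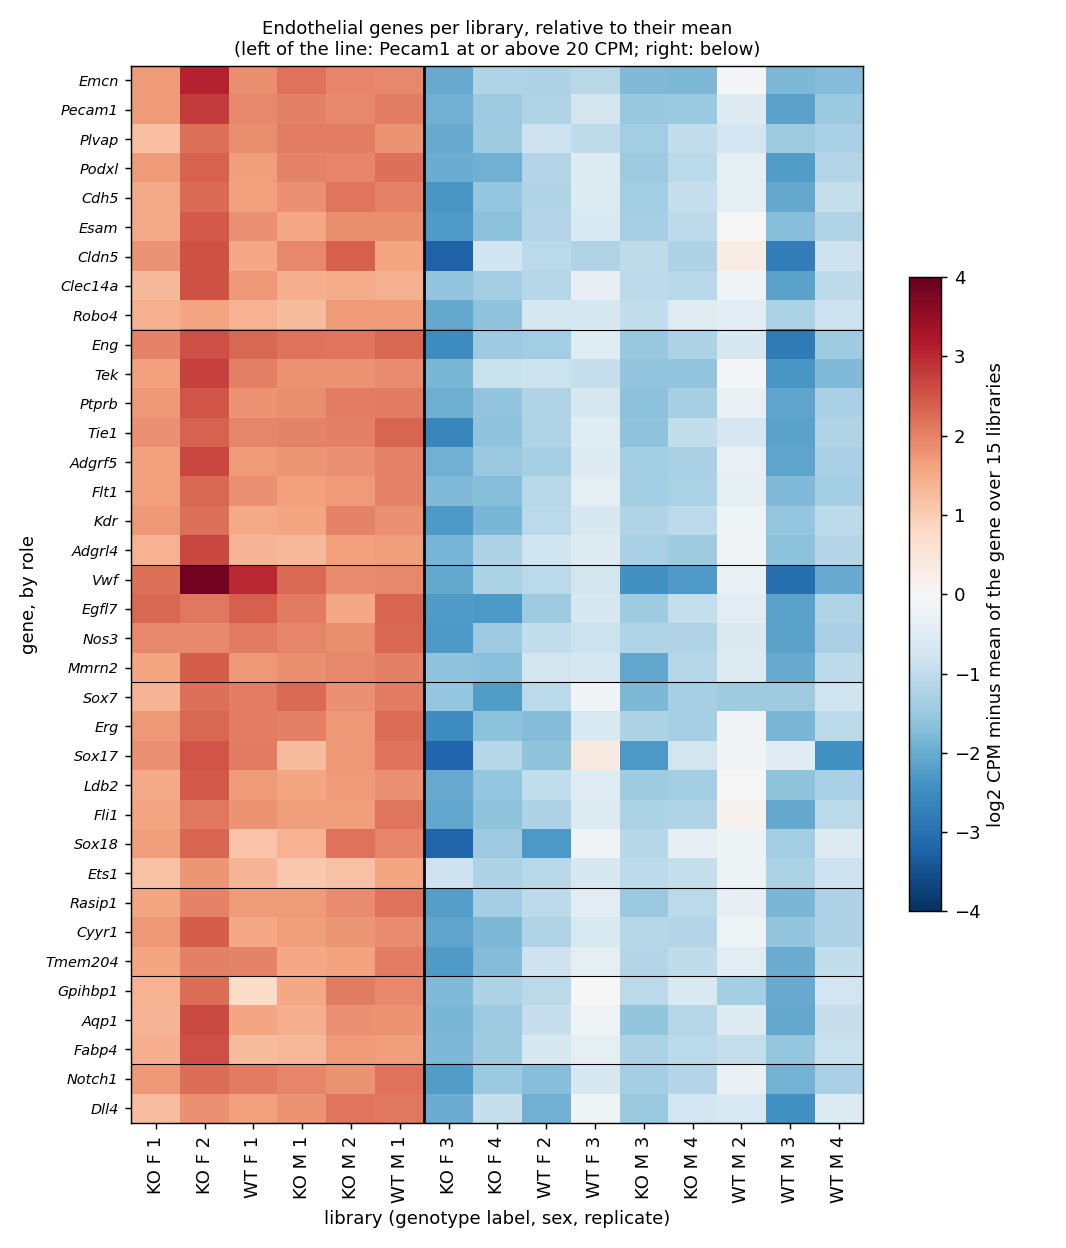
Each of the 36 endothelial genes (rows, grouped by role with thin lines between groups) in each of the 15 libraries (columns), as log2 CPM minus the mean of that gene over the libraries. The 6 libraries left of the thick line have Pecam1 at or above 20 CPM. Red cells fill the left side in every row, Vwf reaches the darkest red in knockout-label female replicate 2, and Ets1 and Robo4 are pale.

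Among the 9 surface adhesion and junction genes, the ratio of medians ran from 5.10 to 12.7 with a median of 8.64. Cdh5 (chr8:104101625-104144511, plus strand), which encodes VE-cadherin, stood at 26.2, 43.9, 32.5, 40.9, 28.5 and 36.1 CPM in the high-Pecam1 libraries and 1.82, 3.16, 3.54, 4.84, 3.97, 6.32, 7.11, 2.22 and 4.72 CPM in the low-Pecam1 libraries. Emcn (chr3:137341067-137432185, plus strand), a sialomucin of capillaries and veins, stood at 22.7, 58.9, 31.1, 27.0, 24.98 and 26.4 CPM in the high-Pecam1 libraries and 1.72, 3.01, 2.03, 2.00, 2.94, 3.18, 6.62, 1.98 and 2.09 CPM in the low-Pecam1 libraries. Knockout-label female replicate 2 was highest in both genes, and for Emcn it was 2.23 times the median of the other 5 high-Pecam1 libraries. At the lower end of this group were Robo4, a roundabout receptor that steadies the vessel wall, and Clec14a, a lectin-domain protein of the endothelial surface. Robo4 (chr9:37401897-37415115, plus strand) had 5.36, 6.00, 4.82, 6.57, 5.24 and 6.52 CPM in the high-Pecam1 libraries and 0.487, 0.657, 1.02, 1.43, 1.22, 1.24, 1.47, 0.825 and 1.11 CPM in the low-Pecam1 libraries. For Clec14a (chr12:58264720-58269290, minus strand), levels were 3.56, 8.45, 3.96, 4.07, 4.82 and 3.89 CPM in the high-Pecam1 libraries and 0.487, 0.551, 0.692, 0.671, 0.649, 1.15, 1.28, 0.330 and 0.702 CPM in the low-Pecam1 libraries. Robo4 was even across the high-Pecam1 libraries, whereas Clec14a in knockout-label female replicate 2 was 2.13 times the median of the other 5.

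The other members of the group were Plvap, which forms the diaphragms of capillary openings, the tight junction gene Cldn5, the adhesion molecule gene Esam and Podxl, which encodes an anti-adhesive sialomucin. Plvap (chr8:71497765-71511752, minus strand) was at 4.04, 8.04, 7.25, 7.28, 6.41 and 6.17 CPM in the high-Pecam1 libraries and 0.435, 0.657, 0.676, 0.882, 0.992, 0.865, 1.04, 0.660 and 0.724 CPM in the low-Pecam1 libraries. Cldn5 (chr16:18776847-18778262, plus strand), the shortest gene at 1.416 kb, was at 1.66, 2.79, 1.83, 2.53, 1.40 and 1.44 CPM in the high-Pecam1 libraries and 0.0512, 0.275, 0.236, 0.204, 0.229, 0.207, 0.593, 0.0707 and 0.270 CPM in the low-Pecam1 libraries. In knockout-label female replicate 3 and wild-type-label male replicate 3 its counts were at or under the floor of 3, so its spread within the low-Pecam1 libraries carries a large counting error. For Plvap the lowest high-Pecam1 library was knockout-label female replicate 1, and for Cldn5 it was wild-type-label female replicate 1. Esam and Podxl had ratios of 8.25 and 8.90.

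The 8 receptor genes had ratios from 6.76 to 12.6, with a median of 8.97. Ptprb (chr10:116275523-116389535, plus strand), the phosphatase that opposes Tie2 signalling, had the highest mean CPM of the group, at 58.0, 99.9, 64.0, 72.1, 60.3 and 74.4 CPM in the high-Pecam1 libraries and 4.53, 5.91, 5.66, 6.95, 7.59, 11.4, 14.3, 4.03 and 7.15 CPM in the low-Pecam1 libraries. Eng (chr2:32646595-32682669, plus strand), the endoglin co-receptor for the TGF-beta family, was at 46.1, 70.6, 52.6, 51.7, 58.3 and 58.1 CPM in the high-Pecam1 libraries and 2.05, 4.30, 4.09, 5.03, 4.46, 8.35, 7.57, 1.65 and 4.38 CPM in the low-Pecam1 libraries. Both genes were highest in knockout-label female replicate 2, and Eng left the widest gap of the 36 genes, with its lowest high-Pecam1 value 5.52-fold above its highest low-Pecam1 value. Of the VEGF receptors, Flt1 had medians of 40.2 and 4.64 CPM and Kdr of 36.5 and 5.04 CPM. The ratios were 10.7 for Tek, the angiopoietin receptor Tie2, and 9.20 for its partner Tie1. The adhesion-type receptors Adgrf5 and Adgrl4 had ratios of 8.73 and 6.76.

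The 4 genes of secreted proteins and vascular tone had the highest median ratio of the 7 role groups, 10.6, and a range of 8.11 to 19.2. Vwf (chr6:125546774-125686679, plus strand), which encodes the clotting factor stored in endothelial granules, stood at 74.8, 236, 78.9, 60.4, 132 and 62.4 CPM in the high-Pecam1 libraries and 3.97, 6.74, 3.07, 3.37, 7.67, 9.93, 13.3, 2.03 and 4.01 CPM in the low-Pecam1 libraries. The female libraries held the 2 highest values, and the lowest high-Pecam1 value was 4.54-fold above the highest low-Pecam1 value. Egfl7, a matrix protein of growing vessels, had a ratio of 12.3. The ratios were 8.91 for Nos3, the endothelial nitric oxide synthase, and 8.11 for Mmrn2, a matrix protein that binds Clec14a.

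Of the 7 transcription regulators, with ratios of 4.68 to 11.2 and a median of 8.35, the ETS gene Fli1 (chr9:32422204-32542861, minus strand) had the highest mean CPM. Its levels were 44.1, 64.0, 47.8, 47.3, 52.0 and 65.7 CPM in the high-Pecam1 libraries and 3.53, 4.90, 6.15, 6.44, 6.30, 10.2, 16.3, 3.58 and 7.05 CPM in the low-Pecam1 libraries. Ets1 (chr9:32636221-32757820, plus strand), whose gene body lies 93.4 kb from that of Fli1, stood at 40.6, 62.1, 38.3, 40.9, 46.5 and 54.1 CPM in the high-Pecam1 libraries and 10.3, 7.67, 8.86, 9.33, 8.36, 11.5, 15.9, 7.62 and 10.2 CPM in the low-Pecam1 libraries. Ets1 stayed at or above 7.62 CPM in every library, and its ratio of 4.68 was the smallest, beside 7.92 for Fli1 and 10.3 for Erg, the third ETS gene. The SoxF genes Sox7, Sox17 and Sox18, which act in arterial and lymphatic specification, had ratios of 11.2, 8.49 and 7.76. Sox17 had the fewest reads of the 36 genes, with a mean of 23.9 counts and 1 count in its lowest library. Ldb2, an adaptor of LIM-domain factors, had a ratio of 8.35.

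The Notch pair consisted of the receptor gene Notch1 and the ligand gene Dll4. Notch1 (chr2:26457903-26516663, minus strand) was at 23.8, 33.4, 27.2, 24.7, 30.2 and 31.9 CPM in the high-Pecam1 libraries and 1.51, 2.54, 2.77, 3.17, 2.17, 4.51, 5.93, 1.91 and 2.90 CPM in the low-Pecam1 libraries. Dll4 had medians of 3.55 and 0.530 CPM, and the ratios were 10.4 and 6.71. For the 3 genes of lipid and water transport, the ratios kept to a narrow range of 6.25 to 7.17. Aqp1 (chr6:55336432-55348555, plus strand), a water channel, was at 28.3, 68.1, 29.9, 38.8, 32.7 and 38.3 CPM in the high-Pecam1 libraries and 3.12, 4.05, 3.65, 5.01, 5.76, 9.74, 7.66, 2.64 and 5.78 CPM in the low-Pecam1 libraries. Fabp4 (chr3:10204088-10208576, minus strand), which carries fatty acids inside capillary cells, stood at 19.97, 43.6, 18.1, 23.7, 17.4 and 22.9 CPM in the high-Pecam1 libraries and 2.10, 2.73, 3.02, 3.43, 4.62, 5.56, 3.72, 2.48 and 3.89 CPM in the low-Pecam1 libraries. Knockout-label female replicate 2 stood apart in both, at 2.08 and 2.18 times the median of the other 5 high-Pecam1 libraries. Gpihbp1 (chr15:75596628-75599481, plus strand), which holds lipoprotein lipase at the capillary surface, was at 2.71, 4.89, 3.03, 4.42, 1.71 and 3.97 CPM in the high-Pecam1 libraries and 0.307, 0.445, 0.488, 0.678, 0.496, 1.03, 0.403, 0.259 and 0.605 CPM in the low-Pecam1 libraries. Its lowest high-Pecam1 library, wild-type-label female replicate 1, was 1.65-fold above the highest low-Pecam1 library, wild-type-label female replicate 3, the narrowest gap of the 36 genes.

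The last 3 genes were Cyyr1, a membrane protein gene, Rasip1, which acts on small GTPases in the forming lumen, and Tmem204, a membrane protein gene of vessels. Cyyr1 (chr16:85421533-85553397, minus strand) stood at 32.5, 53.2, 31.6, 33.6, 29.0 and 36.7 CPM in the high-Pecam1 libraries and 2.28, 2.82, 4.42, 4.34, 4.24, 6.41, 8.73, 3.32 and 4.18 CPM in the low-Pecam1 libraries. It was highest in knockout-label female replicate 2 and lowest in knockout-label female replicate 3. Rasip1 and Tmem204 had ratios of 8.22 and 7.06. The plot of ranges places all 36 genes on the same scale.

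**Figure D3:**
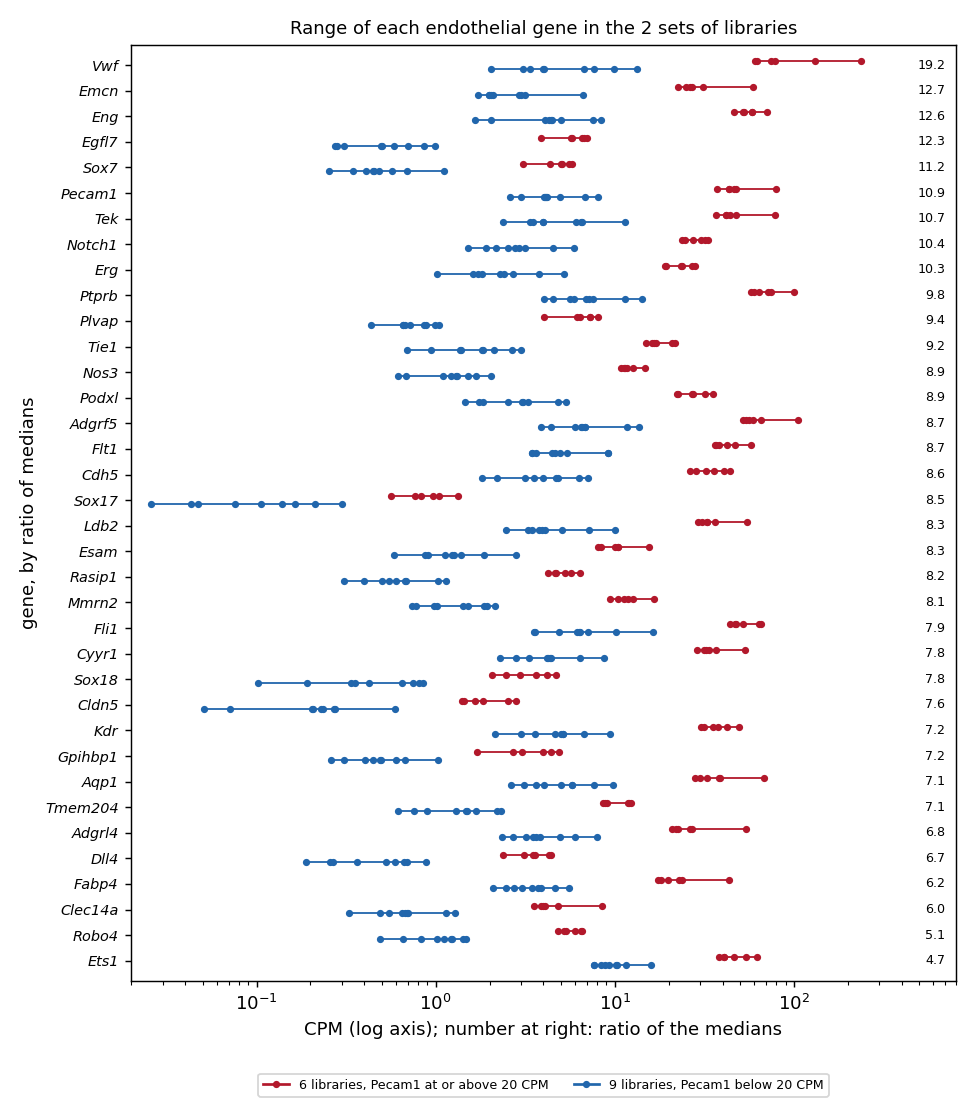
CPM of each of the 36 endothelial genes on a log axis, with 1 point per library and a line from the lowest to the highest, for the 6 libraries with Pecam1 at or above 20 CPM (red) and the 9 below it (blue). The number at right is the ratio of the 2 medians, by which the genes are ordered from Vwf (19.2) to Ets1 (4.7). The red and blue ranges do not overlap in any row.

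Per kb of gene body, which is what the counts cover, the order of genes within the high-Pecam1 libraries changed. The highest medians belonged to Fabp4 (4.78 CPM per kb), Aqp1 (2.93), Sox18 (1.83) and Eng (1.53), and the lowest to Ldb2 (0.100), Erg (0.104) and Sox17 (0.140). The gene bodies ran from 1.416 kb for Cldn5 to 327.5 kb for Ldb2, and reads of introns count in full. Vwf, which led in CPM, had 0.549 CPM per kb.

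The genes were not a fixed mixture within either set of libraries. Knockout-label female replicate 2 was the highest of the 6 high-Pecam1 libraries in 28 of 36 genes, and its value had a median of 1.52 times the median of the other 5. For Vwf this was 3.16 times and for Adgrl4 2.40 times, while for Egfl7 it was 0.886, for Nos3 0.975 and for Dll4 1.02. Knockout-label female replicate 1 was the lowest of the 6 in 19 genes. In the low-Pecam1 set, wild-type-label male replicate 2 was highest in 26 genes and wild-type-label female replicate 3 in the other 10. The lowest library was knockout-label female replicate 3 in 21 genes and wild-type-label male replicate 3 in 12. Knockout-label female replicate 2 also had the highest sums of 12 fibroblast genes (1243 CPM) and 14 leukocyte genes (179.6 CPM) of all 15 libraries. Its cardiomyocyte sum (48695 CPM) was the lowest. Wild-type-label male replicate 2 was extreme in the same way within the low-Pecam1 set, with sums of 183, 57.7 and 62671 CPM. Both libraries also carried reads of the opposite sex. The part of the other cells and of these reads in their levels was not tested.

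As a share of the sum of the 36 genes, Ets1 took more of the low-Pecam1 libraries, as did Ldb2 by a very narrow gap. Ets1 made up 4.11% to 5.46% of the sum in the high-Pecam1 set and 6.80% to 15.2% in the low-Pecam1 set, and Ldb2 3.51% to 3.66% and 3.68% to 4.96%. The 3.68% of Ldb2, in knockout-label female replicate 3, rests on 97 counts, so counting error alone could close its gap. The ratio of Ldb2, 8.35, was near the median of 8.42 over the 36 genes. Ets1 and Ldb2 were the only 2 of the 36 genes whose shares in the low-Pecam1 libraries all lay above those in the high-Pecam1 libraries. In the reverse direction the ranges were apart for 1 gene, Pecam1 itself (4.64% to 5.37% against 3.78% to 4.55%), which made the division.

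The share of Vwf was higher in the female than in the male libraries with high Pecam1. It was 9.37%, 15.6% and 14.1% in the 3 females and 9.11%, 6.73% and 6.30% in the 3 males. With low Pecam1 it was 5.88%, 7.34%, 6.64% and 5.84% in the females and 3.25%, 3.16%, 6.38%, 3.05% and 3.70% in the males. The 6.38% of wild-type-label male replicate 2, a library with Xist reads, fell among the females. Y-linked reads were present in knockout-label female replicate 2 (15.6%) and in wild-type-label female replicate 2 (6.64%). The part of reads of the other sex in these shares was not tested. In the edgeR fit with a term for the Pecam1 level, the female minus male difference of Vwf was 0.99 ± 0.48 (SE) on the log2 scale with the knockout label (adjusted p = 0.481) and 0.56 ± 0.52 with the wild-type label (adjusted p = 0.9997), so neither passed, against 0.063% and 0.00573% of all genes. Vwf was singled out here after its values were seen. In the same high-Pecam1 libraries, the shares of Ptprb, Cdh5, Podxl, Mmrn2, Tie1, Rasip1, Dll4 and Gpihbp1 were apart in the reverse direction. Ptprb had 6.46% to 7.26% in the females and 7.38% to 8.03% in the males, and Cdh5 2.91% to 3.28% and 3.64% to 4.56%. All shares of a library are parts of the same sum, so a larger share of Vwf lowers the others.

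**Figure D4:**
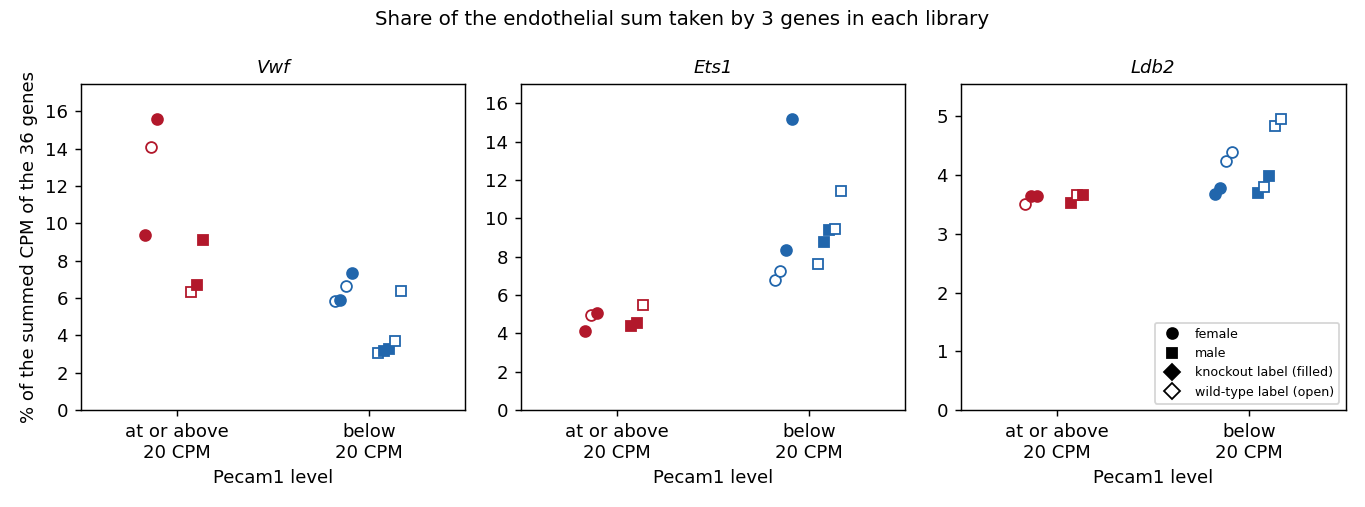
Share of the summed CPM of the 36 endothelial genes taken by Vwf, Ets1 and Ldb2 in each library, in percent, by Pecam1 level. Circles are females, squares males, filled symbols carry the knockout label and open ones the wild-type label. Ets1 and Ldb2 shares are higher in all 9 libraries with low Pecam1, although the Ldb2 ranges nearly meet, at 3.66% and 3.68%. The 3 females with high Pecam1 have more Vwf (9.37% to 15.6%) than the 3 males (6.30% to 9.11%).

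Related vascular genes outside the 36 followed the division in part. Of 21 other endothelial genes, 17 were higher in every high-Pecam1 library than in every low one, against 13.6% of all tested genes, with a median ratio of 8.16. Among them Calcrl, a receptor for adrenomedullin, had a ratio of 11.3, whereas Foxo1 and Tfpi had 0.988 and 0.893. In the Notch and arteriovenous list this held for 12 of 16 genes (median ratio 5.55, with Ephb4 at 1.71, Efnb2 at 2.97 and Hey2 at 0.787). The list of VEGF, angiopoietin and BMP genes had 8 of 15 (median ratio 1.42), and its most abundant genes, Nrp1, Angpt1 and Vegfa, had ratios of 0.808, 0.890 and 1.11. Capillary lipid uptake had 3 of 7 (median ratio 1.57), with the fatty acid transporter Cd36 at 0.723 and the lipase Lpl at 0.860. Of the lymphatic list, 4 of 7 genes had such a gap, with Prox1 at 0.870, Reln at 1.27 and Flt4 at 6.20, and Ccl21a had 0 reads in every library. The endocardial list had 3 of 4, with Nfatc1 at 1.39, Cgnl1 at 5.40 and Npr3 at 6.29.

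Many markers of other cells that are not cardiomyocytes were also higher in the high-Pecam1 libraries, and their part in the endothelial values was not tested. The sum of 12 fibroblast genes was 465 to 1243 CPM against 53.2 to 183 CPM, with all 12 genes apart and a median ratio of 9.66, and Dcn, a collagen-binding proteoglycan, was at 81.3 to 328 against 10.8 to 37.6 CPM. The leukocyte sum was 72.3 to 179.6 against 13.2 to 57.7 CPM with 9 of 14 genes apart, and Ptprc, the gene of CD45, was at 4.41 to 13.7 against 0.637 to 4.74 CPM. The epicardial sum was 16.9 to 36.8 against 6.68 to 12.1 CPM (5 of 6 apart). The mural list had 6 of 10 genes apart, among them Rgs5 of pericytes at 29.1 to 80.9 against 6.22 to 13.4 CPM. Its sum overlapped, at 551 to 662 against 582 to 777 CPM. Adipocyte genes summed to 0.785 to 2.29 against 0.0256 to 0.169 CPM (4 of 5 apart), erythroid genes to 25.9 to 66.4 against 5.74 to 17.9 CPM (4 of 6), and Schwann genes to 13.4 to 24.7 against 10.2 to 19.6 CPM (1 of 5). The low-Pecam1 adipocyte sums lay near the floor of 3 counts, 0.0219 to 0.117 CPM, and 3 of these 5 genes had a low-Pecam1 median of 0. Of all tested genes, 13.6% were apart in this direction. Cardiomyocyte genes summed to 48695 to 75702 against 62671 to 80218 CPM, with 0 of 12 genes wholly higher and 1 wholly lower in the high-Pecam1 libraries, and Pcm1 was at 135 to 205 against 159 to 239 CPM. The share of all genes that were wholly lower was not counted.

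None of the 36 genes passed the test of the genotype label in either sex by edgeR's quasi-likelihood test with Benjamini-Hochberg adjustment over the 17455 tested genes (called at adjusted p below 0.05). In females, all 36 genes were higher on average with the knockout label, with a median log2 difference of 0.56 against 0.025 over all genes. Markers of other cells were mostly higher too: 12 of 12 tested fibroblast genes (median 0.57), 11 of 13 leukocyte genes (0.21), 5 of 6 epicardial genes (0.36) and 7 of 10 mural genes (0.20), with 0 passed in each list. Their part in the endothelial difference was not tested. Of the 36 endothelial genes 0 passed, and 0% of all genes passed. None of the 36 had an unadjusted p below 0.05, against 1.74% of all genes. The smallest p belonged to Gpihbp1, with 2.09 ± 2.17 CPM (SD, n = 4) for the knockout label and 1.08 ± 0.608 CPM (SD, n = 3) for the wild-type label, a log2 difference of 0.96 ± 1.17 (SE) with an adjusted p of 1 in edgeR. Sox18 followed with 0.99 ± 1.24 (SE), Adgrl4 with 0.92 ± 1.17 (SE) and Fabp4 with 0.90 ± 1.15 (SE). The groups overlapped in each of these genes, and each holds high-Pecam1 and low-Pecam1 libraries. The sum of the 36 genes was 617 ± 686 CPM (SD, n = 4) in the females labelled knockout and 406 ± 458 CPM (SD, n = 3) in those labelled wild type.

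In males, 35 of 36 genes were higher on average with the knockout label, with a median log2 difference of 0.51 against 0.018 over all genes. Of the other markers, 12 of 12 fibroblast genes were higher (median 0.71), 5 of 6 epicardial genes (0.82), 5 of 5 erythroid genes (0.85) and 9 of 10 mural genes (0.29), but 5 of 13 leukocyte genes (−0.074), again with 0 passed. Their part in the endothelial difference was not tested. Of the 36 endothelial genes 0 passed, against 0.0115% of all genes, and none had an unadjusted p below 0.05, against 1.42% of all genes. Same-numbered libraries of the male groups count as paired here only because their deviations from the group means correlated. The labels do not state a pairing, and the Pecam1 level goes with the replicate number. The fit above left the pairing out, and with the replicate number as a block none of the 36 genes passed either. Cldn5 had the smallest p, with 1.20 ± 1.17 CPM (SD, n = 4) and 0.594 ± 0.605 CPM (SD, n = 4), a log2 difference of 0.99 ± 1.17 (SE) with adjusted p = 0.999 in edgeR. Plvap followed with 0.89 ± 1.14 (SE), Gpihbp1 with 0.70 ± 1.04 (SE) and Cdh5 with 0.70 ± 1.16 (SE). The sum was 491 ± 452 CPM (SD, n = 4) with the knockout label and 343 ± 436 CPM (SD, n = 4) with the wild-type label. Each knockout-label group held 2 high-Pecam1 libraries of 4, and the wild-type-label groups held 1 of 3 and 1 of 4.

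The label effect did not differ detectably between the sexes. The female minus male difference of the effect was positive in 23 and negative in 13 of the 36 genes, with a median of 0.050, and 0 passed, against 0% of all genes (0 of the 36 and 2.49% of all genes had an unadjusted p below 0.05). The smallest p belonged to Plvap, at -0.62 ± 1.67 (SE) on the log2 scale, followed by Adgrl4 at 0.54 ± 1.57 (SE), Sox7 at -0.61 ± 1.77 (SE) and Sox18 at 0.48 ± 1.64 (SE). Between the sexes within a label, 28 of 36 genes were higher in females with the knockout label and 29 of 36 with the wild-type label, both with a median of 0.15. None passed, against 0.0229% and 0% of all genes, and none had an unadjusted p below 0.05, against 6.37% and 2.09% of all genes. Of the other markers, 11 of 12 fibroblast and 6 of 6 epicardial genes were higher in females with the knockout label (medians 0.41 and 0.36), and 12 of 12 and 6 of 6 with the wild-type label (0.47 and 0.75), with 0 passed. Leukocyte genes were higher in 10 of 13 with the knockout label (0.14) but in 3 of 13 with the wild-type label (−0.091). Mural genes were higher in 5 of 10 with each label (0.097 and −0.010). In these lists too 0 passed. The part of all these markers in the endothelial difference was not tested. The direction of the 36 genes turned with single libraries. With the knockout label, the median ran from −0.67 without female replicate 2 (0 of 36 higher) to 0.71 without male replicate 2 (36 of 36 higher), and it was also negative without female replicate 1 (−0.15) or male replicate 3 (−0.20) or 4 (−0.18). With the wild-type label it ran from −1.28 without female replicate 1 (0 of 36 higher) to 1.58 without male replicate 1 (36 of 36 higher), and it was also negative without male replicate 2 (−0.045), 3 (−0.20) or 4 (−0.16). With a term for the Pecam1 level, an alternative chosen after seeing the data, 15 of 36 genes were higher in females with the knockout label (median −0.11) and 22 of 36 with the wild-type label (0.041). With the replicate number as a block, 16 of 36 were higher with the knockout label (median −0.027) and 30 of 36 with the wild-type label (0.18). None passed in edgeR with either term.

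A term for the Pecam1 level narrowed the errors and turned the direction of most of the genes. The level was cut from Pecam1, itself 1 of the 36 genes, and all 36 were apart by it. Narrower errors of these genes thus followed from the division and are not a separate result. The common dispersion, the variance of counts beyond counting noise, was 0.163 with 4 group means and 0.0434 with the level added. Within a level, 34 of 36 genes were lower with the knockout label in females (median log2 difference −0.39) and 34 of 36 in males (−0.28). Pecam1 itself is counted among the 34 in each sex. Over all genes the medians were −0.0044 in females and −0.019 in males, with 49.0% and 46.1% of genes higher. Other markers were mostly lower in the same fit: 10 of 12 fibroblast genes (median −0.22), 12 of 13 leukocyte genes (−0.55) and 6 of 6 epicardial genes (−0.40) in females, and 11 of 12 (−0.33), 11 of 13 (−0.70) and 4 of 6 (−0.17) in males. In males the 5 of 5 erythroid genes (0.61) and 10 of 12 cardiomyocyte genes (0.18) were higher instead. Of the cardiomyocyte genes in females, 4 of 12 were higher (−0.14). None of them passed, and their part in the endothelial difference was not tested. In females 0 passed, against 0.00573% of all genes, and 2 of the 36 had an unadjusted p below 0.05, against 2.94% of all genes. In males 0 passed, against 0.0115% of all genes, and 0 of the 36 against 2.90% of all genes had an unadjusted p below 0.05. The difference between the sexes was positive in 13 and negative in 23 genes (median −0.082), with 0 passed among the 36 and 0% of all genes.

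The 2 genes below 0.05 in females were Sox7 and Tmem204. Sox7 (chr14:63943673-63950732, plus strand) stood at 3.07, 5.56, 5.76, 4.33, 5.01 and 5.09 CPM in the high-Pecam1 libraries and 0.410, 0.254, 0.346, 0.481, 0.572, 1.11, 0.451, 0.448 and 0.691 CPM in the low-Pecam1 libraries. Tmem204 (chr17:25057702-25083591, minus strand) stood at 8.81, 12.1, 8.60, 9.05, 11.8 and 12.4 CPM in the high-Pecam1 libraries and 0.615, 0.890, 1.31, 1.48, 1.68, 2.33, 2.21, 0.755 and 1.49 CPM in the low-Pecam1 libraries. In the low-Pecam1 females, both genes were lower in the 2 libraries labelled knockout than in the 2 labelled wild type, while in the high-Pecam1 females the lone wild-type-label value of each lay between the 2 knockout-label values. The log2 difference within a level was -0.85 ± 0.33 (SE) for Sox7 (adjusted p = 1 in edgeR). For Tmem204 it was -0.77 ± 0.32 (SE) (adjusted p = 1 in edgeR). Nos3 and Flt1 were next, at -0.52 ± 0.28 (SE) and -0.51 ± 0.31 (SE). In males the smallest p belonged to Ets1, at -0.38 ± 0.21 (SE) (adjusted p = 0.989 in edgeR), with Fli1 at -0.54 ± 0.35 (SE), Ldb2 at -0.50 ± 0.34 (SE) and Erg at -0.46 ± 0.33 (SE). The genes with the smallest p for a difference between the sexes were Sox7 (-0.66 ± 0.44), Plvap (-0.47 ± 0.35), Ets1 (0.37 ± 0.30) and Tmem204 (-0.49 ± 0.42).

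Sox18 and Adgrl4, named for their p-values with group means, showed the same mixture of levels within a label. Sox18 (chr2:181669836-181671640, minus strand) was at 2.97, 4.72, 2.47, 4.17, 2.06 and 3.62 CPM in the high-Pecam1 libraries and 0.102, 0.339, 0.425, 0.751, 0.191, 0.846, 0.806, 0.354 and 0.648 CPM in the low-Pecam1 libraries. Adgrl4 (chr3:151437887-151545086, plus strand) was at 22.6, 54.2, 20.8, 26.4, 22.0 and 26.9 CPM in the high-Pecam1 libraries and 2.36, 3.62, 3.48, 3.21, 4.92, 5.98, 7.92, 2.71 and 3.81 CPM in the low-Pecam1 libraries. Within the high-Pecam1 set, knockout-label female replicate 2 was highest in both genes, and within the low-Pecam1 set knockout-label female replicate 3 was lowest in both.

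**Figure D5:**
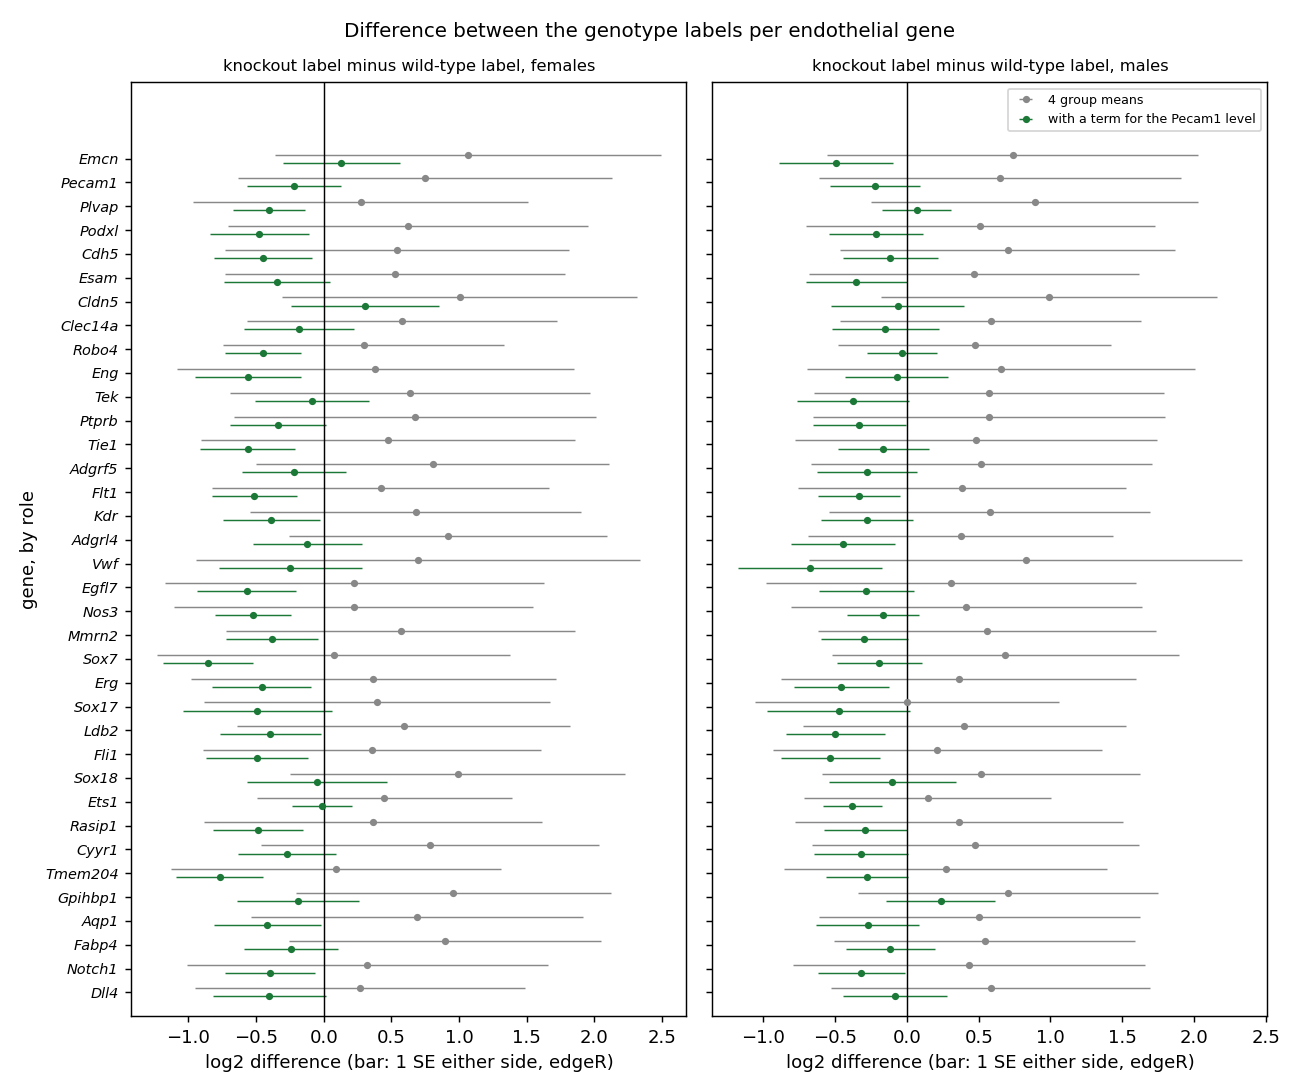
Log2 difference of knockout label minus wild-type label for each of the 36 endothelial genes in females (left) and males (right), with 1 standard error either side, from edgeR fits with 4 group means (grey) and with a term for the Pecam1 level added (green). With group means, all 36 points in females and 35 in males lie above 0 with wide errors, and with the level term 34 of 36 lie below 0 in each sex. None of the 36 passed the test.

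Among the low-Pecam1 libraries alone, most of the 36 genes did not overlap between the labels in females. In 27 of 36 genes both knockout-label females lay below both wild-type-label females, against 14.1% of all tested genes, and in 0 genes both lay above. The 9 others were Tek, Emcn, Erg, Ets1, Cldn5, Sox17, Sox18, Notch1 and Dll4. Pecam1, which made the division, is among the 27, and genes that rise together are not independent. The sum of the 36 genes had the same order, with 67.5 and 91.8 CPM for the knockout label and 116 and 169.8 CPM for the wild-type label. The count is therefore a description of 4 libraries and not 27 separate results. A fit to the 9 low-Pecam1 libraries alone gave a negative log2 difference in 36 of 36 genes, with a median of −1.02, 13 genes with an unadjusted p below 0.05 (2.83% of all genes) and 0 that passed, against 0% of all genes. The same libraries differed in other cells too: the fibroblast sum was 62.3 and 83.3 CPM in the females labelled knockout and 118 and 103 CPM in those labelled wild type. The leukocyte sum was 14.8 and 16.3 against 25.03 and 30.2 CPM. Sums that overlapped between the labels were the cardiomyocyte sum, 78592 and 67679 against 68578 and 68446 CPM, and the mural sum, 582 and 610 against 623 and 590 CPM. What part these other cells have in the endothelial difference was not tested, and 1 of the 4 libraries, wild-type-label female replicate 2, held reads of the other sex.

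In the low-Pecam1 males, the labels overlapped in every gene: in 0 of 36 did both knockout-label libraries lie below all 3 wild-type-label libraries, against 13.6% of all tested genes. The median log2 difference was −0.29 in the fit to these libraries alone, with 33 of 36 genes lower, 0 genes at an unadjusted p below 0.05 (6.35% of all genes) and 0 that passed. The wild-type-label males lay above and below, with sums of 208, 66.6 and 108 CPM around the 94.3 and 107 CPM of the knockout-label males. The difference between the sexes had a median of −0.73 and was negative in 31 of 36 genes, 3 of them at an unadjusted p below 0.05 (4.91% of all genes) and 0 passed.

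Single libraries moved these averages. Without knockout-label female replicate 2, the median log2 difference of the 4-group fit in females was −0.31 in place of 0.56, with 33 of 36 genes lower. Without wild-type-label female replicate 3, the within-level median in females was −0.10 with 23 genes lower, and without wild-type-label male replicate 2 that in males was 0.030 with 15 lower. With those 3 libraries that carried reads of the opposite sex left out, the 4-group medians were −0.74 in females (36 of 36 lower) and 0.33 in males (35 of 36 higher). The within-level medians were then −0.71 in females, with 35 of 36 genes lower and 21 at an unadjusted p below 0.05 (5.51% of all genes), and 0.039 in males, with 15 lower. In each of these fits 0 of the 36 genes passed.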

How the data were processed

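Per the submitters' processing notes, the authors used GRCm38 (mm10), the aligner STAR 2.5.3a and the counter featureCounts 1.5.0. The authors deposited unscaled read counts of each gene. Gene lengths in the file equal end minus start plus 1, so introns are included. Analyses used the larger table (55536 genes) in R 4.3.3: edgeR 4.0.16 kept 17455 genes by filterByExpr, scaled libraries by TMM and fitted robust quasi-likelihood models to all 15 libraries, with 4 group means (11 residual degrees of freedom) or with a term for the Pecam1 level added (10). Tests were two-sided and Benjamini-Hochberg adjusted over all tested genes. The scripts were tested on simulated data.

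The 36 genes, the other lists and the division by Pecam1 at 20 CPM were chosen with earlier results of these data known. Values in every library are given for Pecam1, Cdh5, the gene of highest mean CPM in each role, the 3 largest and the 3 smallest ratios, and the 4 smallest p-values of each label comparison with group means. Ratios are of median CPM. Where a symbol had 2 rows, the row with more reads was used. Same-numbered libraries had deviations from their group means that correlated at 0.169 to 0.699 between the male label groups, which count as paired, and at −0.41 to 0.708 between the female ones, which do not. Between the sexes they correlated at 0.503 to 0.829 with the knockout label and at 0.179 to 0.842 with the wild-type label, which count as paired too, although the Pecam1 level goes with the replicate number. Pairing is read here from these correlations alone and is not stated by the labels. The p-values and standard errors stated for the paired comparisons come from fits without pairing, and the replicate block was run only as an alternative. Alternatives were DESeq2 1.42.0, limma 3.58.1, other scaling, no filter, a replicate block and leaving out libraries.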

Additional observations from a re-analysis of the deposited data

Results flagged for a closer look

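In the group of 4 male libraries with the wild-type label, replicate 1 stood apart as the highest library in 25 of the 36 genes and in their sum, by the Dixon gap test at the 95% level. These were 26 of 111 groups tested. The usual rate by chance, about 1 in 20, cannot be set against them. Replicate 1 is the only high-Pecam1 library of that group, so it was already known to be highest in all 36 genes. Pecam1, which made the division, is itself among the flags, and genes that rise together are not independent. The flags are therefore a description and no further support for a difference. Its sum was 991 CPM. Its junction and surface genes stood at 47.6 CPM for Pecam1, 36.1 for Cdh5, 6.52 for Robo4, 6.17 for Plvap and 32.1 for Podxl. Its receptors stood at 46.8 CPM for Flt1, 21.0 for Tie1, 58.1 for Eng, 74.4 for Ptprb and 65.2 for Adgrf5. Secreted and tone genes were at 6.71 CPM for Egfl7, 12.6 for Mmrn2 and 14.8 for Nos3, and regulators at 26.9 CPM for Erg, 5.09 for Sox7, 1.05 for Sox17 and 3.62 for Sox18. Notch1 was at 31.9 CPM and Dll4 at 4.31, Fabp4 at 22.9, Gpihbp1 at 3.97 and Aqp1 at 38.3, and Cyyr1 at 36.7, Rasip1 at 6.41 and Tmem204 at 12.4.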

How the results depend on the processing

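The count of endothelial genes called was 0 in every label and sex comparison under other scaling, DESeq2, limma, the replicate block and each left-out library, with 1 exception. With no filter on low counts, 1 gene was called within the Pecam1 level in males, Vwf, at an edgeR adjusted p of 0.00785, beside 221 of 32841 genes. The replicate block changed no call, and gave median log2 differences of 0.32 in females and 0.51 in males, −0.16 for their difference, −0.47, −0.23 and −0.21 within the level, and −0.027 and 0.18 for female minus male with the knockout and the wild-type label. Single genes turned sign when the 3 libraries with opposite-sex reads were left out, which was chosen after seeing the data, or when only low-Pecam1 libraries were kept. In females these values were −0.23 and −1.06 for Gpihbp1, −0.33 and −1.29 for Sox18, −0.55 and −0.87 for Adgrl4, and −0.47 and −1.08 for Fabp4. In males, with low-Pecam1 libraries only, they were −0.50 for Cldn5, −0.041 for Plvap and −0.16 for Cdh5. For the difference between the sexes they were −0.81 and −0.34 for Adgrl4, −0.66 and −1.27 for Sox18 (−0.10 with the replicate block), and within the level −0.11 for Ets1, where the median moved to −0.74. The cause was not tested. Leaving out 1 library gave −0.20 to 1.92 for Adgrl4 and −0.15 to 1.75 for Fabp4 in females, and for the difference −2.03 to 0.94 for Plvap, −0.57 to 1.55 for Adgrl4, −2.26 to 0.77 for Sox7 and −0.69 to 1.41 for Sox18. It gave medians of −0.31 to 1.92 in females, 0.014 to 1.97 in males and −1.40 to 1.47 for the difference, −0.67 to 0.71 and −1.28 to 1.58 for female minus male with the knockout and the wild-type label, and within the level −0.68 to −0.098, −0.45 to 0.030 and −0.41 to 0.26. The ratio of medians kept all 36 genes apart in every setting, with a median of 7.63 (wild-type label only) to 9.63 (knockout label only), and Vwf at 12.7 to 21.0. At 24.4 to 139.4 M counts a library, Cldn5 and Sox17 were near the floor of 3 counts in some libraries, which limits what can be read from them.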
